A study of Mus musculus with 11 samples.

Results

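The 6 genes were chosen for what they encode, and with earlier results of these data known. They encode ion channels and a sodium pump subunit that set the excitability of the muscle fibre membrane. They were the chloride channel gene Clcn1, the sodium channel gene Scn4a, the potassium channel genes Kcnj2, Kcnj11 and Kcnn3, and the sodium pump gene Atp1b1, that is 6 of the 55487 genes in the tables. A filter on low counts left 10505 genes for testing, and all 6 passed it. RNA came from the gastrocnemius, a mixed calf muscle, and was read as 3' tags (QuantSeq 3' mRNA FWD), in which a read lies near the 3' end of a polyadenylated transcript. The 11 libraries, each with a sample record of its own, were 4 from Raptor mTOR double knockout mice, 3 from Raptor knockout mice and 4 from wild-type mice. The double knockout came from a cross of HSA-Cre-Raptor fl/fl with mTOR fl/fl mice, and the Raptor knockout from loxP-flanked Raptor mice that carried a Cre recombinase joined to a mutated oestrogen receptor domain. The human skeletal actin promoter drove the Cre, so deletion was directed at muscle fibres and not at the other cells of the muscle. Mice of all 3 groups were given tamoxifen from 3 months of age, in chow for 7 weeks, and muscle was taken 7 months after the start. The sources used here do not give the sex of any mouse, or whether the wild-type mice carried floxed alleles or the Cre. Raptor, from the gene Rptor, marks mTOR complex 1 off from mTOR complex 2, and mTOR, from the gene Mtor, is the kinase of both. The submitters' contrasts of interest were the double knockout with wild type and with the Raptor knockout.

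An action potential in a muscle fibre begins when the voltage-gated sodium channel opens, and it is ended by potassium efflux and by the large resting chloride conductance of adult muscle. Inward rectifier potassium channels and the chloride channel hold the resting potential, and the sodium pump restores the gradients that each action potential runs down. Denervated and immature fibres are known for a low chloride conductance and for an apamin-sensitive, calcium-activated potassium channel that innervated adult fibres have little of.

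Library totals ran from 2791339 to 6328533 counts. Rptor tags averaged 4.83 counts-per-million (CPM, scaled by TMM) in the double knockout, 4.57 in the Raptor knockout and 9.83 in wild type. Against wild type they fell by 1.02 (log2) in the double knockout, with an edgeR adjusted p of 0.00156, and by 1.11 in the Raptor knockout, with an edgeR adjusted p of 0.00282. Mtor tags averaged 35.9 CPM in the double knockout, 20.6 in the Raptor knockout and 20.8 in wild type. Against wild type they rose by 0.78 (log2) in the double knockout, with an edgeR adjusted p of 0.00534, and every double-knockout library was above every other library. Against the Raptor knockout the log2 fold change of Mtor was 0.80 (edgeR adjusted p = 0.162). The sources used here do not place the loxP sites, so tags at the 3' end are no check of either deletion. Double-knockout replicates 3 and 4 were sequenced in a smaller run than the other 9 libraries. Xist, which the inactive X chromosome transcribes, had between 355 and 784 counts in double-knockout replicates 1 to 3 and wild-type replicate 3, and at most 1 count in the remaining 7, which include all of the Raptor knockout. Ddx3y, a gene of the Y chromosome, had at most 1 count in the libraries with Xist and 220 to 335 counts in the remaining 7. These 2 transcripts part the libraries as female and male samples do, so sex and genotype are partly mixed, most of all between the knockouts. In whole muscle, fewer cells of a type and less RNA per cell cannot be told apart.

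Per transcript length, in the deposited transcripts-per-million (TPM), Atp1b1 had the highest mean level over the 11 libraries at 75.2 TPM, with a range of 31.9 to 142. Clcn1 followed at 72.9 TPM with a range of 5.67 to 188, and Kcnj11 at 27.9 TPM with a range of 22.3 to 42.0. Kcnj2 averaged 3.37 TPM (0.82 to 7.06), Scn4a 1.05 TPM (0.70 to 1.5) and Kcnn3 0.795 TPM (0.07 to 1.51). Neighbours in this order overlapped in range except Kcnj11 and Kcnj2, where the lowest Kcnj11 library lay above the highest Kcnj2 library. A 3' tag is counted at the transcript's end whatever its length, so division by length lowers the TPM of genes with long transcripts, such as Scn4a with 6598 bases. Clcn1 was the gene whose TPM depended most on the library: its TPM per CPM ran from 0.442 to 2.30 across libraries, a 5.2-fold range, against at most 1.12-fold for each of the other 5 genes. The software that made the TPM divides a gene's counts among its transcripts, and the 10 annotated Clcn1 transcripts are 417 to 3545 bases long. Levels below are therefore CPM, which does not use length, as the mean ± SD with n = 4 double-knockout, n = 3 Raptor-knockout and n = 4 wild-type libraries.

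**Figure D1:**
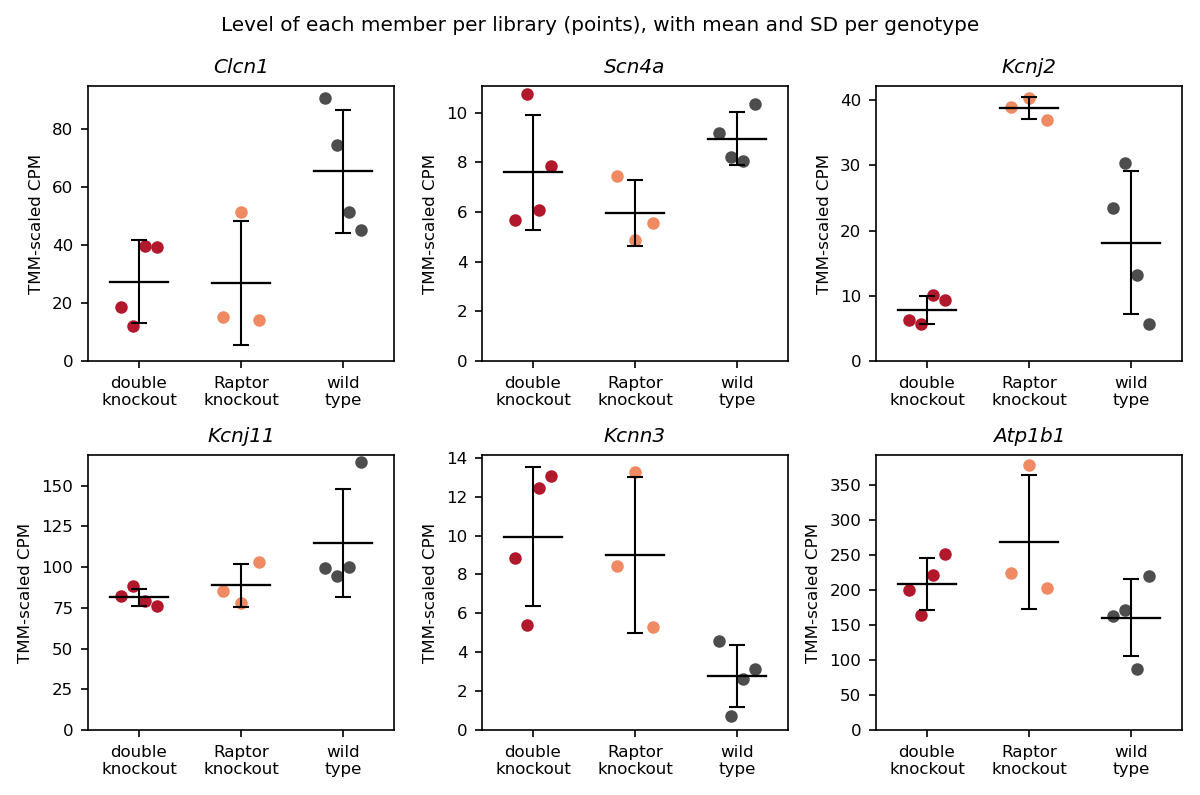
Level of each of the 6 genes in every library, as TMM-scaled CPM, by genotype, with the double knockout at the left, the Raptor knockout in the middle and wild type at the right. Points are libraries, the long bar is the mean and the error bar is the SD (n = 4, 3 and 4). Kcnn3 in both knockouts lies above every wild-type library, and Kcnj2 forms 3 tight points near 39 CPM in the Raptor knockout and stays at or below 10.1 CPM in the double knockout.

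Of the 6 genes, Kcnn3 rose and Kcnj11 fell in the double knockout against wild type, and Kcnn3 rose in the Raptor knockout against wild type. Of all tested genes, 26.7% were called in the first comparison, 13.0% higher and 13.7% lower, and 18.2% in the second, 8.73% higher and 9.43% lower (edgeR quasi-likelihood test, adjusted p under 0.05 over all 10505 genes). Read against that background, 2 of 6 and 1 of 6 do not set these genes apart from the table. None of the 6 was called between the double knockout and the Raptor knockout, where the background was 0.0286%, or 3 genes, 0.00952% higher and 0.0190% lower. In that comparison 1 of the 6, Kcnj2, had an unadjusted p under 0.05, as did 997 of all genes, and DESeq2 called Kcnj2 among 88 genes. The libraries of the groups did not overlap for 3 of the 6 genes in the double knockout against wild type (background 26.8%), for 1 between the knockouts (background 12.2%) and for 3 in the Raptor knockout against wild type (background 27.3%). The 4 wild-type libraries enter both comparisons with wild type, which are therefore not independent. The labels do not say that each library is a separate animal beyond its own sample record. The p-values therefore set each difference against the spread between these samples, estimated in 1 fit of the 3 genotypes.

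**Figure D2:**
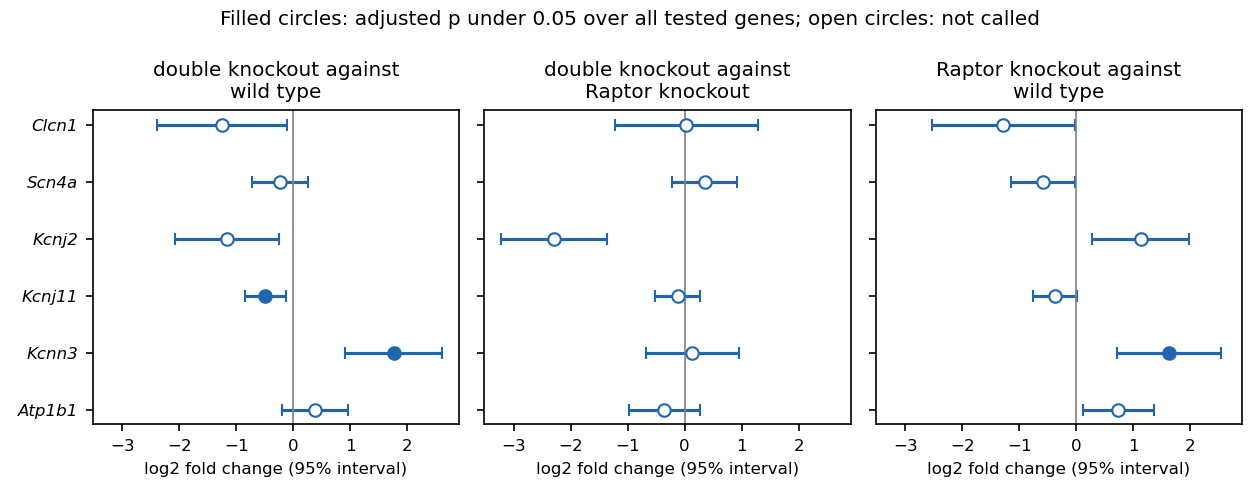
Log2 fold change of the 6 genes with its 95% interval (edgeR) in the double knockout against wild type, the double knockout against the Raptor knockout and the Raptor knockout against wild type. Filled circles have an adjusted p under 0.05 over all tested genes. The interval of Kcnj2 lies wholly below 0 against the Raptor knockout although its circle is open, with an adjusted p of 0.105.

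Clcn1 (ENSMUSG00000029862, GRCm38 chromosome 6, 42286685 to 42315756, plus strand) encodes ClC-1, the channel of the resting chloride conductance, whose loss causes myotonia. It had 18.6, 12.1, 39.8 and 39.2 CPM in double-knockout replicates 1 to 4 and 15.1, 51.4 and 14.1 in Raptor-knockout replicates 1 to 3. It had 90.7, 74.7, 51.3 and 45.1 CPM in wild-type replicates 1 to 4. Every double-knockout library lay below every wild-type library, while Raptor-knockout replicate 2 lay among the wild types. The means were 27.4 ± 14.2 CPM in the double knockout, 26.9 ± 21.3 in the Raptor knockout and 65.4 ± 21.1 in wild type. The log2 fold change was -1.25 in the double knockout against wild type (SE 0.51, 95% interval -2.39 to -0.11, edgeR adjusted p = 0.102) and -1.28 in the Raptor knockout against wild type (SE 0.56, interval -2.53 to -0.02, edgeR adjusted p = 0.150). Neither passed the threshold over all genes. Between the double knockout and the Raptor knockout it was 0.03, with an interval of -1.23 to 1.29 (edgeR adjusted p = 0.992) that leaves differences of more than 2-fold either way possible.

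The Clcn1 libraries of a genotype stood in the order of another transcript. The level of mt-Rnr2, the 16S ribosomal RNA of the mitochondrion, was 8087, 4967, 17927 and 15595 CPM in double-knockout replicates 1 to 4 and 4315, 22423 and 3116 CPM in the Raptor knockout. It was 36524, 35809, 24916 and 4834 CPM in wild-type replicates 1 to 4. Within each of the 3 genotypes, the libraries ranked by Clcn1 exactly as by mt-Rnr2, and Clcn1 was the only one of the 6 genes for which this held in all 3. Kcnj2 came close: it had the mt-Rnr2 order in both knockouts, and in wild type only replicates 1 and 2 were exchanged. Kcnn3 and Atp1b1 had that order in the Raptor knockout alone. How many of all tested genes have the same order was not counted, so the order is not shown to be particular to Clcn1. Wild-type replicates 1 to 3 had more mt-Rnr2 than any knockout library, so mt-Rnr2 is partly mixed with genotype. A fit with it as a covariate can therefore take out part of a genotype difference. With mt-Rnr2 as a covariate, a setting chosen after the data were seen, Clcn1 passed against wild type in the double knockout, at a log2 fold change of -0.96 (edgeR adjusted p = 0.0180), and not in the Raptor knockout, at -0.79 (edgeR adjusted p = 0.0953). Within the larger run alone, the log2 fold change of Clcn1 in the double knockout against wild type was -2.09 (edgeR adjusted p = 0.0373). Without Raptor-knockout replicate 2, Clcn1 passed in the double knockout against wild type at -1.25 (edgeR adjusted p = 0.0291) and in the Raptor knockout against wild type at -2.16 (edgeR adjusted p = 0.0154). The part of mt-Rnr2 in the Clcn1 difference was not tested further.

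**Figure D3:**
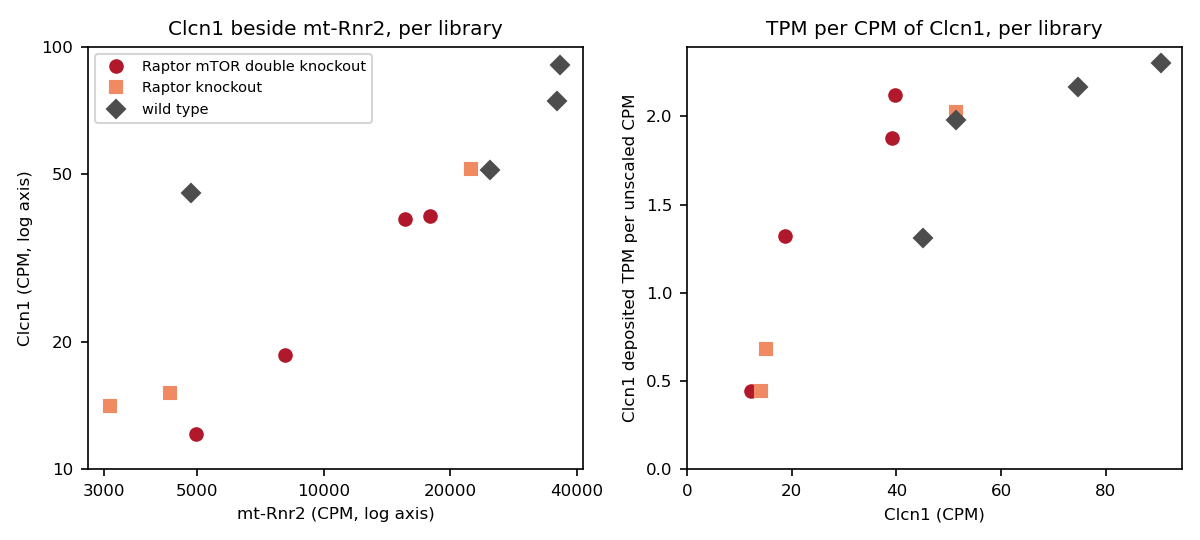
Clcn1 in each library beside mt-Rnr2 (left, both in CPM on log axes) and the TPM of Clcn1 per unscaled CPM against its CPM (right). Symbols mark the double knockout (circles), the Raptor knockout (squares) and wild type (diamonds). Libraries with more mt-Rnr2 have more Clcn1 within each genotype, and the libraries with the least Clcn1 have the lowest TPM per CPM, down to 0.442.

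The 250 bases before the start site are shown for Clcn1, Kcnj2 and Kcnn3, the 3 genes whose genotype means lay furthest apart, from RefSeq on GRCm38.p6, on the coding strand. Capitals mark every E-box (CANNTG, the letters bound by myogenic basic helix-loop-helix factors) and the MEF2 consensus. Entries were found for 5 of the 6 genes, Kcnj11 being the other.
Clcn1, chr6:42286435-42286684, plus strand: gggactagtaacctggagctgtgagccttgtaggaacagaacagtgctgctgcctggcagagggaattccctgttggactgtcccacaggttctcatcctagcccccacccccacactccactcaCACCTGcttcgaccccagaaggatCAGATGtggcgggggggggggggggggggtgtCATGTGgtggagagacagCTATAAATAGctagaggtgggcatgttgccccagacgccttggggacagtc
Kcnj2, chr11:111065914-111066163, plus strand: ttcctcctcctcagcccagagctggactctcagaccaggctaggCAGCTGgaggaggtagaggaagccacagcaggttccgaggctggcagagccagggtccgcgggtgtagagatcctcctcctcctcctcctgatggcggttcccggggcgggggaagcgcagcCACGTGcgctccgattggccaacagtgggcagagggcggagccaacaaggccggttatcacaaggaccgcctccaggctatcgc
Kcnn3, chr3:89519914-89520163, plus strand: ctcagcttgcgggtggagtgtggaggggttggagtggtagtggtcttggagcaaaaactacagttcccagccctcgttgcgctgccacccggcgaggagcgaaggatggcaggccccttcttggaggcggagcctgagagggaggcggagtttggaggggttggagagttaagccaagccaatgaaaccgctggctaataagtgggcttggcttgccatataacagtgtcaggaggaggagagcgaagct
The Clcn1 stretch holds 3 E-boxes and a MEF2 consensus at 51 to 42 bases before the start, which overlaps the letters TATAAA. The Kcnj2 stretch holds 2 E-boxes, of which the nearer is CACGTG, and the CCAAT box (CCAAT) on the opposite strand. The Kcnn3 stretch holds no E-box and no MEF2 consensus, and 1 CCAAT box at 72 to 68 bases before the start. On either strand, among 32851 promoter stretches of the same length, 66.2% hold an E-box, 6.02% hold CACGTG, 33.8% the CCAAT box, 12.4% TATAAA and 2.92% the MEF2 consensus. These are matches of letters, and no binding was measured.

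Scn4a (ENSMUSG00000001027, chromosome 11, 106318592 to 106353288, minus strand) encodes Nav1.4, the sodium channel that carries the upstroke of the muscle action potential. It had 5.69, 10.8, 6.10 and 7.85 CPM in double-knockout replicates 1 to 4 and 7.44, 4.87 and 5.58 in the Raptor knockout. It had 9.20, 8.22, 8.06 and 10.4 CPM in wild-type replicates 1 to 4. The 3 Raptor-knockout libraries lay below every wild-type library, whereas double-knockout replicate 2 was the highest library of all. The log2 fold change was -0.23 in the double knockout against wild type (interval -0.73 to 0.26, edgeR adjusted p = 0.497) and 0.35 against the Raptor knockout (interval -0.22 to 0.92, edgeR adjusted p = 0.731). In the Raptor knockout against wild type it was -0.58 (interval -1.14 to -0.03, edgeR adjusted p = 0.138). No comparison passed, and with 18 to 49 counts per library the last interval reached past 2-fold lower.

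Kcnj2 (ENSMUSG00000041695, chromosome 11, 111066164 to 111076821, plus strand) encodes Kir2.1, an inward rectifier of the resting membrane whose loss causes a periodic paralysis in humans. It had 6.32, 5.66, 10.1 and 9.30 CPM in double-knockout replicates 1 to 4 and 39.0, 40.3 and 37.0 in Raptor-knockout replicates 1 to 3. In wild-type replicates 1 to 4 it had 23.5, 30.4, 13.2 and 5.64 CPM. The knockouts stood on opposite sides: the Raptor-knockout libraries lay close together and above all others, the double-knockout libraries were all low, and the wild types were spread between, with replicate 4 as low as the lowest double knockout. The means were 7.84 ± 2.17 CPM in the double knockout, 38.8 ± 1.69 in the Raptor knockout and 18.2 ± 10.9 in wild type.

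Kcnj2 was 4.92-fold lower in the double knockout than in the Raptor knockout (log2 fold change -2.30, SE 0.42, interval -3.22 to -1.37), which had an unadjusted p of 0.000164 and missed the threshold over all genes (edgeR adjusted p = 0.105). The log2 fold change of Kcnj2 was -1.16 in the double knockout against wild type (SE 0.42, interval -2.08 to -0.25, edgeR adjusted p = 0.0583) and 1.13 in the Raptor knockout against wild type (SE 0.39, interval 0.28 to 1.99, edgeR adjusted p = 0.0662). Whether these values passed depended on the wild-type libraries and on the test. Wild-type replicate 4, the lowest wild type for Kcnj2, also had the least mt-Rnr2 of the wild types, at 4834 CPM. Without wild-type replicate 4 all 3 passed: the double knockout stood at -2.30 against the Raptor knockout (edgeR adjusted p = 0.00218) and at -1.46 against wild type (edgeR adjusted p = 0.000899), and the Raptor knockout at 0.84 against wild type, with an edgeR adjusted p of 0.0280. Without wild-type replicate 2 the Raptor knockout passed against wild type at 1.47, with an edgeR adjusted p of 0.0217. The DESeq2 Wald test with every library called all 3. Within the larger run alone the double knockout stood at -2.69 against the Raptor knockout (edgeR adjusted p = 0.238) and at -1.56 against wild type (edgeR adjusted p = 0.0849). All 3 Raptor-knockout libraries lacked Xist and 3 of the 4 double-knockout libraries had it. Among the libraries lacking Xist, with double-knockout replicate 4 alone for its genotype and assumed to vary like the others, the log2 fold change against the Raptor knockout was -2.05.

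Kcnj11 (ENSMUSG00000096146, chromosome 7, 46093953 to 46100764, minus strand) encodes Kir6.2, the pore of the ATP-sensitive potassium channel, which opens when fibre energy is low. It had 82.5, 88.3, 79.2 and 76.1 CPM in double-knockout replicates 1 to 4 and 85.4, 77.7 and 103 in the Raptor knockout. Wild-type replicates 1 to 4 had 99.2, 94.7, 100.2 and 164 CPM. The other 10 libraries lay between 76.1 and 103 CPM, and wild-type replicate 4 stood alone above them. Kcnj11 fell by 0.49 (log2) in the double knockout against wild type (SE 0.17, interval -0.85 to -0.13, edgeR adjusted p = 0.0432), to 81.6 ± 5.22 CPM in the double knockout against 115 ± 33.2 in wild type, with no overlap of libraries. Without wild-type replicate 4 the log2 fold change was -0.27 (edgeR adjusted p = 0.0903), and the call was also lost without any 1 of the 4 double-knockout libraries or without Raptor-knockout replicate 1 (edgeR adjusted p from 0.0582 to 0.0992). Within the larger run alone it was -0.43 (edgeR adjusted p = 0.220). The log2 fold change of Kcnj11 was -0.12 in the double knockout against the Raptor knockout (interval -0.51 to 0.27, edgeR adjusted p = 0.897) and -0.37 in the Raptor knockout against wild type (interval -0.76 to 0.02, edgeR adjusted p = 0.184).

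Kcnn3 (ENSMUSG00000000794, chromosome 3, 89520164 to 89675132, plus strand) encodes SK3, the apamin-sensitive calcium-activated potassium channel of denervated and developing muscle. It had 8.85, 5.39, 12.5 and 13.1 CPM in double-knockout replicates 1 to 4, and 8.46, 13.3 and 5.28 in the Raptor knockout. Wild-type replicates 1 to 4 had 4.60, 0.715, 2.63 and 3.16 CPM, from 20, 2, 16 and 14 counts. All 7 knockout libraries exceeded all 4 wild types. Kcnn3 rose 3.40-fold in the double knockout against wild type, to 9.94 ± 3.56 CPM in the double knockout against 2.78 ± 1.61 in wild type (log2 fold change 1.77, SE 0.40, interval 0.91 to 2.62, edgeR adjusted p = 0.00431). It rose 3.09-fold in the Raptor knockout against wild type, to 9.0 ± 4.02 CPM in the Raptor knockout against the same 2.78 in wild type (log2 fold change 1.63, SE 0.43, interval 0.72 to 2.54, edgeR adjusted p = 0.0156). Between the double knockout and the Raptor knockout the log2 fold change was 0.14, with an interval of -0.69 to 0.96 (edgeR adjusted p = 0.949).

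The lower double-knockout values of Kcnn3 came from the larger run. Within that run the log2 fold change against wild type was 1.28 (edgeR adjusted p = 0.0887). The Raptor-knockout call was lost without Raptor-knockout replicate 2 (1.24, edgeR adjusted p = 0.0767) and without wild-type replicate 3 (1.53, edgeR adjusted p = 0.0509). Among libraries lacking Xist the log2 fold change against wild type was 2.08 in the double knockout (edgeR adjusted p = 0.0957) and 1.55 in the Raptor knockout (edgeR adjusted p = 0.0676).

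Atp1b1 (ENSMUSG00000026576, chromosome 1, 164437109 to 164458355, minus strand) encodes the beta-1 subunit that brings the sodium pump to the membrane. It had 199, 163, 221 and 251 CPM in double-knockout replicates 1 to 4 and 224, 378 and 202 in Raptor-knockout replicates 1 to 3. It had 163, 172, 87.3 and 220 CPM in wild-type replicates 1 to 4. Raptor-knockout replicate 2 was the highest library and wild-type replicate 3 the lowest, and the genotypes overlapped in every comparison. The means were 209 ± 36.9 CPM in the double knockout, 268 ± 95.9 in the Raptor knockout and 161 ± 54.9 in wild type. The log2 fold change was 0.38 in the double knockout against wild type (interval -0.20 to 0.97, edgeR adjusted p = 0.330) and -0.36 against the Raptor knockout (interval -0.98 to 0.26, edgeR adjusted p = 0.749). In the Raptor knockout against wild type it was 0.74 (interval 0.12 to 1.37, edgeR adjusted p = 0.0958). Scaled by library totals instead of TMM, that last value was 0.95 and passed (edgeR adjusted p = 0.0192). With that scaling the median of all genes in this comparison also moved up, and most calls were higher.

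Atp1b1 shares its role with Atp1b2 and Atp1b3, and in TPM it made up 57.7 ± 7.93% of the 3 beta subunits in the double knockout, 64.4 ± 12.8% in the Raptor knockout and 57.4 ± 13.8% in wild type. The share was 36.7% in wild-type replicate 3, where Atp1b2 led with 49.2%, and 79.0% in Raptor-knockout replicate 2. In all other libraries Atp1b1 was the first of the 3, at 46.6% to 65.6%. A 3' tag is counted whatever the length, so these TPM shares depend on transcript length and need not be shares of molecules.

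**Figure D4:**
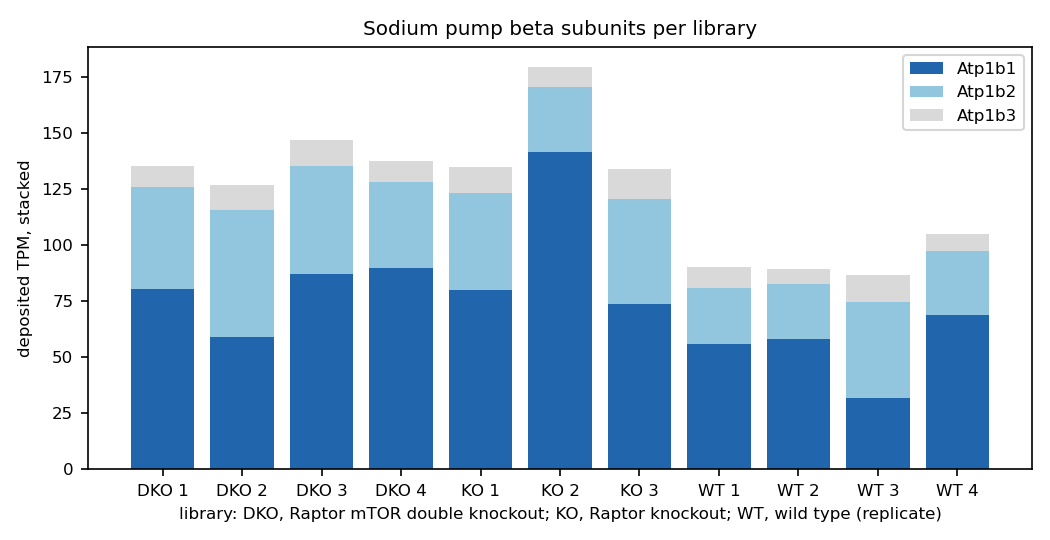
Deposited TPM of the sodium pump beta subunits Atp1b1, Atp1b2 and Atp1b3, stacked, in each double-knockout (DKO), Raptor-knockout (KO) and wild-type (WT) library. Atp1b1 is the largest part in every bar except wild-type replicate 3, where Atp1b2 stands at 42.6 TPM and Atp1b1 at 31.9 TPM.

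The other genes listed with the sodium pump moved upward where they were called. Of 8 tested subunits and regulators other than Atp1b1, 4 rose and 0 fell in the double knockout against wild type (median log2 fold change 0.55), and 2 rose and 0 fell in the Raptor knockout against wild type (median 0.26). The median of all tested genes was 0.02 and 0.00. Of all tested genes, 13.0% rose and 13.7% fell in the double knockout, and 8.73% rose and 9.43% fell in the Raptor knockout. Fxyd6, a regulator of the FXYD family, averaged 110.0 ± 9.96 CPM in the double knockout, 126 ± 11.5 in the Raptor knockout and 72.7 ± 15.6 in wild type, with every knockout library above every wild-type library. It rose by 0.60 (log2) in the double knockout and 0.80 in the Raptor knockout (edgeR adjusted p = 0.00831 and 0.00277), and Fxyd5 and Atp1b4 rose in the double knockout by 1.07 and 0.87 (edgeR adjusted p = 0.00951 and 0.0442). Whether the product of Atp1b4 serves the pump was not tested. None of the 8 genes was called between the knockouts. Scaled by library totals, the double knockout had 6 and the Raptor knockout 3 higher and neither any lower, and among libraries lacking Xist, where the double knockout has 1 library, they had 0 and 1 higher. With library totals, most calls over all genes were also higher in both comparisons. With Xist as a covariate 2 were called higher in the double knockout and 3 in the Raptor knockout. With 1 library left out at a time 3 to 5 rose in the double knockout and 1 to 3 in the Raptor knockout, the 1 without Raptor-knockout replicate 2, and the Atp1b4 call was lost in 8 of these 11 fits.

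Around Scn4a, 8 of 11 listed sodium channel subunits and membrane anchors were tested. Of these, 2 rose and 1 fell in the double knockout against wild type, and 1 rose in the Raptor knockout against wild type. Over all tested genes, the shares were 13.0% higher and 13.7% lower in the double knockout, and 8.73% and 9.43% in the Raptor knockout. Sntb1, the gene of beta-1 syntrophin of the dystrophin complex, had 6.89 to 14.8 CPM in the double knockout, 5.28 to 7.44 in the Raptor knockout and 2.25 to 8.39 in wild type, and the genotypes overlapped. It rose by 1.29 in the double knockout (edgeR adjusted p = 0.0250), and its log2 fold change in the Raptor knockout was 0.61 (edgeR adjusted p = 0.364). The Sntb1 call was lost without double-knockout replicate 1 or 4 or without wild-type replicate 1, 2 or 4, which left 1 of the list higher in the double knockout. In the Raptor knockout 2 of the list were higher without Raptor-knockout replicate 2 or wild-type replicate 3. Scn4b, an auxiliary sodium channel subunit, had 52.1, 73.0, 54.6 and 57.8 CPM in the double knockout, 118, 94.8 and 105 in the Raptor knockout and 126, 149, 123 and 84.1 in wild type. All double-knockout libraries lay below all others, and Scn4b fell by 1.02 against wild type (edgeR adjusted p = 0.000351). Against the Raptor knockout the log2 fold change of Scn4b was -0.83 (edgeR adjusted p = 0.105), and in the Raptor knockout against wild type it was -0.18 (edgeR adjusted p = 0.522).

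Around the 3 potassium channels, 13 of 28 listed subunits were tested, and calls with TMM scaling were mostly downward: 1 rose and 4 fell in the double knockout against wild type (median log2 fold change -0.20), and 1 rose and 5 fell in the Raptor knockout against wild type (median -0.43). Among all tested genes 13.0% rose and 13.7% fell in the double knockout, and 8.73% rose and 9.43% fell in the Raptor knockout. Kcnab1, an auxiliary subunit of voltage-gated channels, had 1.26, 0.270, 0.795 and 0 CPM in double-knockout replicates 1 to 4, and 0.769, 0 and 0.294 CPM in the Raptor knockout. In wild-type replicates 1 to 4 it had 9.20, 10.01, 5.92 and 5.86 CPM. Each knockout library had 0 to 4 Kcnab1 counts and each wild type 26 to 40, and the gene fell in the double knockout (log2 fold change -3.67, edgeR adjusted p = 8.57e-05) and in the Raptor knockout (-4.28, edgeR adjusted p = 0.000225). Abcc9, the sulphonylurea receptor SUR2 that joins Kir6.2 in the channel, fell by 0.57 in the double knockout and by 0.62 in the Raptor knockout (edgeR adjusted p = 0.00293 and 0.00454). Kcnc4 fell in both, by 0.94 and 1.15, and Kcnc1 fell by 0.64 in the double knockout. Kcnj12, another inward rectifier, fell by 0.86 in the Raptor knockout (edgeR adjusted p = 0.0353) and is named after its value was seen. With 1 library left out at a time, 3 to 5 of the list fell in the double knockout and 3 to 6 in the Raptor knockout, the 3 without any 1 of the Raptor-knockout libraries. Of those 11 fits the Kcnc4 call was lost in 3 in the double knockout and in 2 in the Raptor knockout, the Kcnc1 call in 3 and the Kcnj12 call in 5, and the calls of Kcnab1 and Abcc9 in none. The downward lean of the list depended on the scaling: with library totals, 1 rose and 1 fell in the double knockout (median 0.04) and 2 rose and 2 fell in the Raptor knockout (median -0.23).

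Around Clcn1, 17 of 18 listed chloride channels and transporters were tested: 3 rose and 3 fell in the double knockout against wild type, and 3 rose and 2 fell in the Raptor knockout against wild type. The shares over all tested genes were 13.0% higher and 13.7% lower in the double knockout, and 8.73% and 9.43% in the Raptor knockout. Such counts do not set the list apart from the table. Clic4 averaged 55.5 ± 9.38 CPM in the double knockout, 43.6 ± 4.47 in the Raptor knockout and 21.2 ± 6.21 in wild type, and rose by 1.38 and 1.03 on the log2 scale in the double and the Raptor knockout. Slc12a4, a potassium chloride cotransporter, rose by 1.0 and 1.2. The chloride proton exchanger gene Clcn4 averaged 27.8 ± 5.34 CPM in the double knockout, 27.0 ± 5.35 in the Raptor knockout and 56.5 ± 4.93 in wild type, and fell by 1.02 and 1.06. Ano5, whose loss causes a limb-girdle muscular dystrophy in humans, fell by 0.85 and 0.52. Without double-knockout replicate 1 the list had 1 higher in the double knockout, and without Raptor-knockout replicate 1 it had 1 higher and 1 lower in the Raptor knockout. In the Raptor knockout 1 was lower also without Raptor-knockout replicate 3, double-knockout replicate 3 or wild-type replicate 1 or 2. Slc12a4 lost its call without either of these libraries in the matching knockout, and in the double knockout also without wild-type replicate 3. The Raptor-knockout call of Ano5 was lost in 6 of the 11 fits that leave out 1 library. Of 4 tested regulators known for Clcn1 splicing, Mbnl1 fell in both knockouts, averaging 227 ± 17.4 CPM in the double knockout, 221 ± 33.9 in the Raptor knockout and 437 ± 66.2 in wild type (log2 fold change -0.94 and -0.98), and Celf1 fell by 0.53 in the Raptor knockout. The Mbnl1 calls held with any 1 library left out, and the Celf1 call was lost in 8 of those 11 fits. The counts are per gene, so Clcn1 splice forms were not analysed here.

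**Figure D5:**
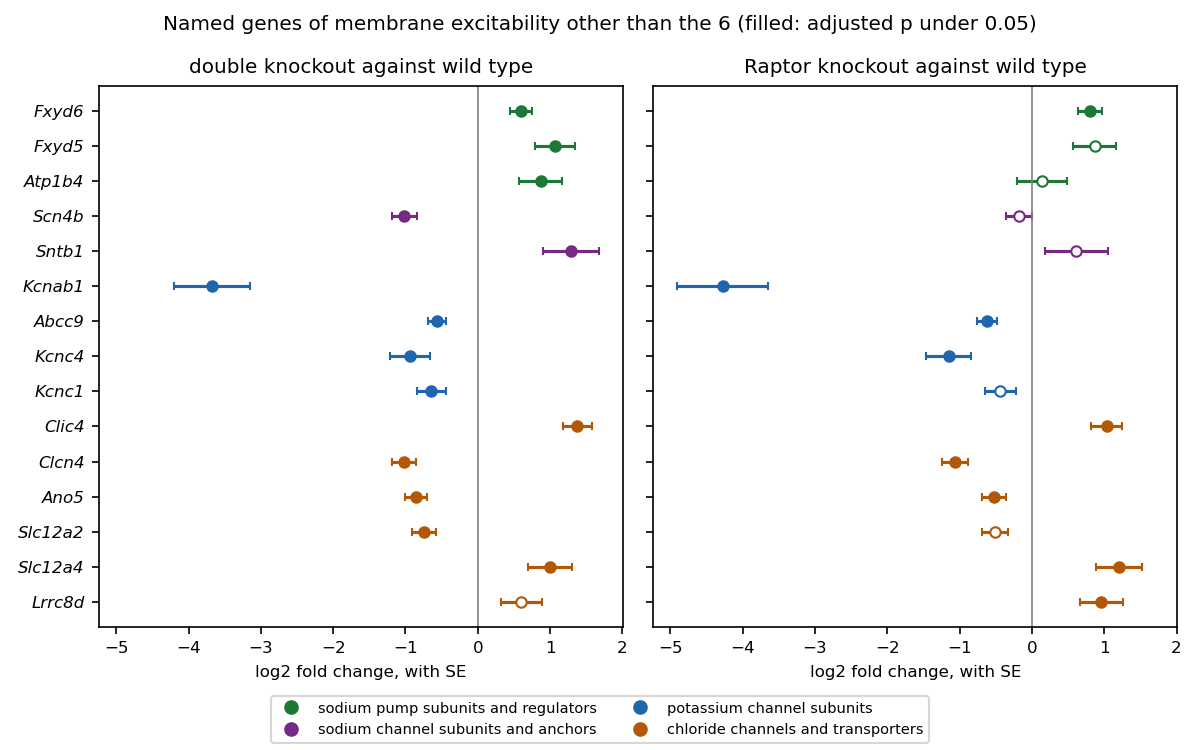
Log2 fold change (points) with its SE (bars) of named genes of membrane excitability other than the 6, in the double knockout against wild type (left) and the Raptor knockout against wild type (right), coloured by list. Filled circles have an edgeR adjusted p under 0.05. Kcnab1 lies furthest to the left at -3.67 and -4.28, and the 3 genes listed with the sodium pump, at the top, lie right of 0.

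Denervation response genes rose beside Kcnn3: 7 of 10 tested in the double knockout against wild type and 6 of 10 in the Raptor knockout against wild type, with 0 lower in either (median log2 fold change 1.51 and 1.32). The list held 12 genes. Chrng and Musk, with at most 7 and 14 counts in a library, were too low to be tested. The share of all tested genes that rose was 13.0% in the double knockout and 8.73% in the Raptor knockout. With 1 library left out at a time, 6 to 7 of the list rose in the double knockout and 4 to 6 in the Raptor knockout. In these fits 0 to 1 fell in the double knockout and 0 in the Raptor knockout. Myog, the myogenic factor induced in denervated fibres, stood at 119 ± 43.8 CPM in the double knockout, 66.9 ± 26.3 in the Raptor knockout and 5.03 ± 3.20 in wild type. Chrna1, the acetylcholine receptor subunit that spreads over denervated fibres, stood at 60.9 ± 14.0 CPM in the double knockout, 50.3 ± 7.16 in the Raptor knockout and 12.5 ± 3.28 in wild type. The highest wild-type library was below the lowest knockout library for both genes.

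Other cells of the muscle also carry channels and pumps, and markers of some of them differed between genotypes. For comparison with the marker counts, 13.0% of all tested genes rose and 13.7% fell in the double knockout. In the Raptor knockout 8.73% rose and 9.43% fell. Of 8 fibroblast markers, 6 rose in the double knockout and 3 in the Raptor knockout against wild type, and their summed level was 1827 to 2032 CPM in the double knockout, 1607 to 1713 in the Raptor knockout and 922 to 1517 in wild type. Without wild-type replicate 3 the Raptor knockout had 5 fibroblast markers higher. Of 8 mural cell markers, 2 rose in each knockout, but 1 of these was Des, the desmin gene, which is also on the list of myofibre markers and made up most of the summed level. The other 7 mural markers summed to 209 to 281 CPM in the double knockout, 223 to 266 in the Raptor knockout and 188 to 216 in wild type. Of these 7, Acta2 rose in the double knockout and Pdgfrb in the Raptor knockout, and the calls were lost in 4 and 8 of the 11 fits that leave out 1 library. Of 10 macrophage markers 8 were tested and 4 rose in each knockout, with sums of 136 to 179 CPM in the double knockout, 97.2 to 209 in the Raptor knockout and 70.8 to 124 in wild type. With 1 library left out, 2 to 5 macrophage markers rose in the double knockout, the 2 without double-knockout replicate 1, 2 or 3 or wild-type replicate 1, and 0 to 6 in the Raptor knockout, the 0 without Raptor-knockout replicate 1. Of 9 Schwann cell and nerve markers 6 were tested and 1 rose in the double knockout, with sums of 134 to 328 CPM in the double knockout, 94.1 to 242 in the Raptor knockout and 108 to 135 in wild type, and the neurofilament genes Nefl and Nefm had at most 1 count in a library. Of 5 erythrocyte markers Hbb-bt was called in the Raptor knockout, with sums of 2612 to 3174 CPM in the double knockout, 2177 to 10013 in the Raptor knockout and 1666 to 3363 in wild type. That call was lost in 10 of the 11 fits with a library left out, and without Raptor-knockout replicate 1 the list had 3 higher. No endothelial, adipocyte or satellite cell marker was called with every library in the fit (up to 2 of a list were with 1 library left out), and none of the other lists had a marker at 0 throughout a genotype. The 10 myofibre markers summed to 91738 to 112806 CPM in the double knockout, 90696 to 100965 in the Raptor knockout and 95125 to 116773 in wild type. Of these 10, 3 were higher and 3 lower in each knockout, and 1 was lower in the double knockout without double-knockout replicate 3. The part of the other cells in the results for Kcnn3, Kcnj2, Clcn1 and the sodium pump genes was not tested.

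Across the 11 libraries the 6 genes did not share a pattern. The Pearson correlation of log2 CPM between pairs of them ran from -0.56 for Kcnj11 with Kcnn3 to 0.61 for Kcnn3 with Atp1b1. These values, and the likenesses that follow, describe 11 libraries that share their genotype differences and their depth. Of 6405 genes searched, the 3 most like Clcn1 were Wapl (r = 0.990), Rb1cc1 (0.982) and Erc1 (0.981). The 3 most like Scn4a were Brpf3 (0.919), Vwa1 (0.900) and Furin (0.894), and those most like Kcnj2 were Rere (0.935), Itgb6 (0.921) and Rassf3 (0.907). Kcnj11 was most like Ndrg2 (0.968), Tesk1 (0.965) and Prdx5 (0.963). Kcnn3 was most like Hsf2 (0.947), Macf1 (0.917) and Strada (0.916), and Atp1b1 was most like Crhr2 (0.925), Wipi1 (0.885) and Tmem259 (0.864).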

How the data were processed

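The authors deposited expected counts per gene, in a table for each sequencing run, and TPM per gene in a table of all libraries. Per the submitters' processing notes, fastp 0.20.0, STAR 2.7.0 and RSEM 1.3.3 were used with GRCm38, also named mm10. The annotation release, filters and strand setting are not given in the sources used here. Without a stated strand setting, reads of a gene and its antisense partner cannot be told apart: the partners overlapping Clcn1 (Fam131b) and Atp1b1 (Nme7) had at most 1 and 5 counts in a library. The tables also hold 6 columns that no sample label matches, which were left out.

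Expected counts, of which 2.25% were not whole, were rounded for a test with edgeR 4.0.16 under R 4.3.3 (filterByExpr by genotype, TMM, robust quasi-likelihood fit of the 3 genotypes over all 11 libraries, two-sided F test). The 10505 tested genes held 99.5% of counts. P-values were adjusted over them by the Benjamini-Hochberg method within each comparison and called under 0.05. The SE is the log2 fold change over the square root of F, with 95% intervals. CPM is scaled by TMM. The fit had 8 residual degrees of freedom, and the common biological coefficient of variation was 20.6%. Library totals were 2791339 to 6328533 counts, and the SE of the 6 genes ran from 0.17 for Kcnj11 to 0.56 for Clcn1. No libraries of a genotype were the same library sequenced again (lowest chi-square per degree of freedom 3.34). The check does not show whether each library came from its own animal. Positions and transcript lengths come from GENCODE M21, promoters from RefSeq GRCm38.p6. The pipeline was tested on simulated data.

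Alternatives were DESeq2 size factors, library totals, no low-count filter, only the 2 compared genotypes, run or Xist as a covariate, the larger run only, libraries under 10 Xist CPM only, the DESeq2 1.42.0 Wald test, limma 3.58.1 on log2(TPM + 1) or log2(TPM + 0.1) over the 10342 genes whose mean TPM reached 1 and without that filter, and each library left out. The mt-Rnr2 covariate was added after the data were seen, and mt-Rnr2 is partly mixed with genotype. The 6 genes, the gene lists and these settings were chosen with earlier results of these data known. The rule for named genes took the 6 genes, then from each list the called genes of smallest adjusted p, up to 4, or 6 for the pump, potassium and chloride lists. Some genes these rules took are not reported here, and list counts include them. For likeness it took the 3 genes of highest Pearson correlation among named genes with a mean log2 CPM of at least 3. Replicates were numbered in accession order and were not paired.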

Additional observations from a re-analysis of the deposited data

Results flagged for a closer look

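Each genotype with 4 libraries was checked for a library far from the other 3 (Dixon's test at the 95% level), for 31 named genes in 62 groups of 4, where chance alone marks about 1 in 20 groups. The groups marked below are about as many as chance alone would mark. Kcnj11 in wild-type replicate 4 stood at 164 CPM, against 94.7 to 100.2 CPM in the other 3 wild types, and the fall of Kcnj11 in the double knockout was not called without that library. Sntb1, a syntrophin gene, stood at 8.39 CPM in wild-type replicate 3, against 2.25 to 2.76 CPM in the other wild types. Slc12a2, the sodium potassium chloride cotransporter gene, stood at 22.6 CPM in double-knockout replicate 2, against 32.6 to 34.0 CPM in the other double knockouts.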

How the results depend on the processing

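No paired analysis was possible because the labels give no replicate numbers shared between genotypes. Log2 fold changes follow, with DKO for the double knockout, KO for the Raptor knockout and WT for wild type. Kcnj11 in DKO against WT lost its call with library totals (-0.25), only the 2 genotypes (-0.48), run as a covariate (-0.42), the larger run alone (-0.43), TPM with a pseudocount of 1 or 0.1 or unfiltered (-0.29 each), Xist as a covariate (-0.45) and libraries lacking Xist (-0.67). Clcn1 in DKO against WT passed with only the 2 genotypes (-1.24), run as a covariate or the larger run alone (-2.09 each) and mt-Rnr2 (-0.96). The smaller run holds only DKO replicates 3 and 4. Run as a covariate and the larger run alone are therefore not separate checks, as both compare DKO replicates 1 and 2 alone with the other genotypes. Kcnn3 in DKO against WT lost its call with run as a covariate (1.27), the larger run alone (1.28) and libraries lacking Xist (2.08), and in KO against WT with unfiltered TPM (0.63) and libraries lacking Xist (1.55). Kcnj2 passed in the DESeq2 Wald test in DKO against WT (-1.21), DKO against KO (-2.30) and KO against WT (1.09), with only the 2 genotypes (-2.28) or mt-Rnr2 (-2.59) in DKO against KO, and with library totals (1.33), TPM with a pseudocount of 1 (1.09) or mt-Rnr2 (1.78) in KO against WT. In KO against WT, Atp1b1 passed with library totals (0.95), and Scn4a (-0.78) and Kcnj11 (-0.60) with mt-Rnr2. None of the reversals in DKO against KO passed: Clcn1 with run as a covariate or the larger run alone (-0.81 each) and mt-Rnr2 (-0.17), Kcnn3 with the same 3 (-0.36, -0.35 and -0.0276), Kcnj11 with mt-Rnr2 (0.00501) and Atp1b1 with the Xist covariate (0.19). The causes were not tested. Kcnn3 has a mean TPM under 1 and no value in the filtered TPM fits.

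With 1 library left out at a time, the lowest and highest values in DKO against WT were -1.48 and -0.995 for Clcn1, -0.45 and -0.13 for Scn4a, -1.46 and -0.83 for Kcnj2, -0.57 and -0.27 for Kcnj11, 1.54 and 2.09 for Kcnn3 and 0.16 and 0.58 for Atp1b1. In DKO against KO they were -0.28 and 0.91 for Clcn1, -2.45 and -2.17 for Kcnj2 and -0.13 and 0.52 for Kcnn3. In KO against WT they were -2.16 and -0.98 for Clcn1, 0.84 and 1.47 for Kcnj2 and 1.24 and 1.96 for Kcnn3.

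Genes called in DKO against KO numbered 105 with no filter, 157 with only the 2 genotypes, 88 in the DESeq2 Wald test, 1 and 8 with filtered and unfiltered TPM, 0 with the Xist covariate or libraries lacking Xist, 15 with mt-Rnr2 and 0 to 97 with a library left out, where WT replicate 4 gave the most. With libraries lacking Xist, 472 were called in DKO against WT and 1265 in KO against WT, where 1241 were called with unfiltered TPM and 1140 to 2413 with a library left out. With library totals, 74.2% of calls were higher in DKO against WT and 74.1% in KO against WT, as against 48.8% and 48.1% with TMM, and the median log2 fold change of all genes was 0.25 and 0.20. With TPM and a pseudocount of 1 the shares were 69.3% and 66.5%.

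The lowest counts were those of Kcnn3, 2 to 49 in a library, and Scn4a, 18 to 49. The standard errors were largest for Clcn1, 0.51 to 0.56.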
